A study of Mus musculus with 3 samples.

Results

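Chemokine ligands were followed here one by one in kidneys taken on day 14 after folic acid (FA). The Aoah-/- genotype was represented by 2 mice, carrying replicate numbers 2 and 3, and the WT genotype by 1 mouse, carrying number 3. Members were all genes whose symbol was Ccl or Cxcl followed by a number, together with Cx3cl1, Xcl1, Pf4 and Ppbp. These were 46 annotated features with 40 symbols, of which 24 were Ccl and 12 were Cxcl genes, and 34 features with at least 50 UMIs over the 3 libraries were described. The mice were 6 to 8 weeks old, the Aoah-/- mice lacked the gene in every cell on a C57/BL6J background, and the WT control was of the same breeding. No untreated kidney was included, so every value was measured after FA. Each mouse gave 1 droplet library, in which every captured RNA molecule was counted once through its unique molecular identifier (UMI). With 1 WT library, no test between genotypes was possible, and each difference given is one between libraries. Values are given in the order Aoah-/- mouse 2, Aoah-/- mouse 3 and WT mouse, unless stated otherwise, as counts per 1000000 UMIs of the same cells (CPM).

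Chemokines are small secreted proteins that bind to the extracellular matrix and draw leukocytes along their gradient through G protein-coupled receptors. The CXC ligands with an ELR motif bind CXCR2 and draw neutrophils, several CC ligands bind receptors such as CCR1 and CCR2 and draw monocytes, macrophages and T lymphocytes, and a homeostatic set guides cells through lymphoid and barrier tissue. In the injured kidney, both tubular cells and infiltrating leukocytes are known sources of these ligands.

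Cxcl2 and Cxcl3 are neighbouring genes on chromosome 5 that both encode neutrophil ligands. Both had granulocyte-like cells as their highest class among those with at least 20 cells in every library. Among the 3 ligands with this source class, they had the smallest and the largest log2 ratio in size. Their upstream sequences are therefore shown, as the 250 bases before the RefSeq start on GRCm38.p6, both on the plus strand. Capitals mark the match to the NF-kappa B site.
Cxcl2, chr5:90903649-90903898: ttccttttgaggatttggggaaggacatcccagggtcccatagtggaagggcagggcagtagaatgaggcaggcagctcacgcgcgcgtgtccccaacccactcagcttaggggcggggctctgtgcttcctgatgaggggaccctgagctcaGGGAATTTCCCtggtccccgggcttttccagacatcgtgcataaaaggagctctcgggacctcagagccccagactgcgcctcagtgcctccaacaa
Cxcl3, chr5:90785851-90786100: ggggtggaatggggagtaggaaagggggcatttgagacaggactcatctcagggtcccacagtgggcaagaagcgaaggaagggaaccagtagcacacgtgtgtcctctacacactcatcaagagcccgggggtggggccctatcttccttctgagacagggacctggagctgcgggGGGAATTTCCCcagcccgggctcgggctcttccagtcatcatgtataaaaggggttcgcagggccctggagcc
The NF-kappa B site was searched on both strands and matched in both windows, beginning 97 bases before the start of Cxcl2 and 73 bases before that of Cxcl3, in each case as a pair of overlapping matches. It occurred in 7.25% of 32851 promoters of this length and in 7 of the 25 described ligands that the promoter table held (Ccl1, Ccl20, Ccl9, Cxcl1, Cxcl10, Cxcl2 and Cxcl3). The interferon-gamma activated site (GAS, TTCNNNGAA) occurred in 7.02% of promoters and in 2 of these ligands, Ccl17 and Cxcl14. The interferon-stimulated element (ISRE, GAAANNGAA) occurred in 7.13% of promoters and in 5 ligands, Ccl1, Ccl3, Cxcl10, Cxcl14 and Cxcl9. A match of letters is a description and does not show that a factor was bound.

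The libraries held 167222984, 161015021 and 158551992 UMIs. After filtering, 21368, 19692 and 18202 cells remained, with a median of 3357, 3678 and 3859 UMIs. Aoah itself was at 6.06 CPM and 5.68 CPM in the Aoah-/- mice and at 15.3 CPM in the WT mouse, so reads of the targeted gene were lower but present. The deleted part of the gene is not given in the sources used here, and 3′ reads may lie outside it. Clustering without the ligands gave 59 clusters, of which 46 were named from marker genes in 23 classes holding 91.0% of the cells, and names ending in -like denote these classes. Of the cells left unnamed, 936, 3612 and 808 in the 3 libraries, 3164 in Aoah-/- mouse 3 formed a cluster that mixed tubular and macrophage genes. Pairs of libraries shared 171 to 176 cell barcodes, at most 0.763% of the smaller library. A class with peritoneal macrophage markers held 1430 cells, 94.0% of them in Aoah-/- mouse 2, and was not ranked as a source. Ranking used the 21 classes with at least 20 cells in every library. In bulk sums over all cells, fewer cells of a type and less RNA per cell cannot be told apart.

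The source cells of the ligands were diverse. The class with the highest mean level over the libraries, called the source class here, was macrophage-like for 11 ligands, fibroblast-like for 5 and injured tubule-like for 4. Granulocyte-like, dendritic type 2-like and natural killer (NK)-like cells were the source class of 3 ligands each. PTEC-like cells (proximal tubular epithelial cells), T lymphocyte-like, dendritic type 1-like, endothelial-like and mural-like cells were each the source class of a single ligand. For 21 of the 34 ligands, the same class was highest in all 3 libraries. Genes that lie next to each other did not share a source class throughout. On chromosome 5 (GRCm38), Cxcl5 (90759360 to 90761624) and Cxcl1 (90891241 to 90893115) had the injured tubule-like class, Pf4 (90772435 to 90773383) the macrophage-like class, and Cxcl3 (90786103 to 90789600) and Cxcl2 (90903871 to 90905938) the granulocyte-like class. On chromosome 11, fibroblast-sourced Ccl11 (82057823 to 82062955) lay between macrophage-sourced Ccl7 (82045712 to 82047525) and Ccl12 (82101845 to 82103400).

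**Figure D1:**
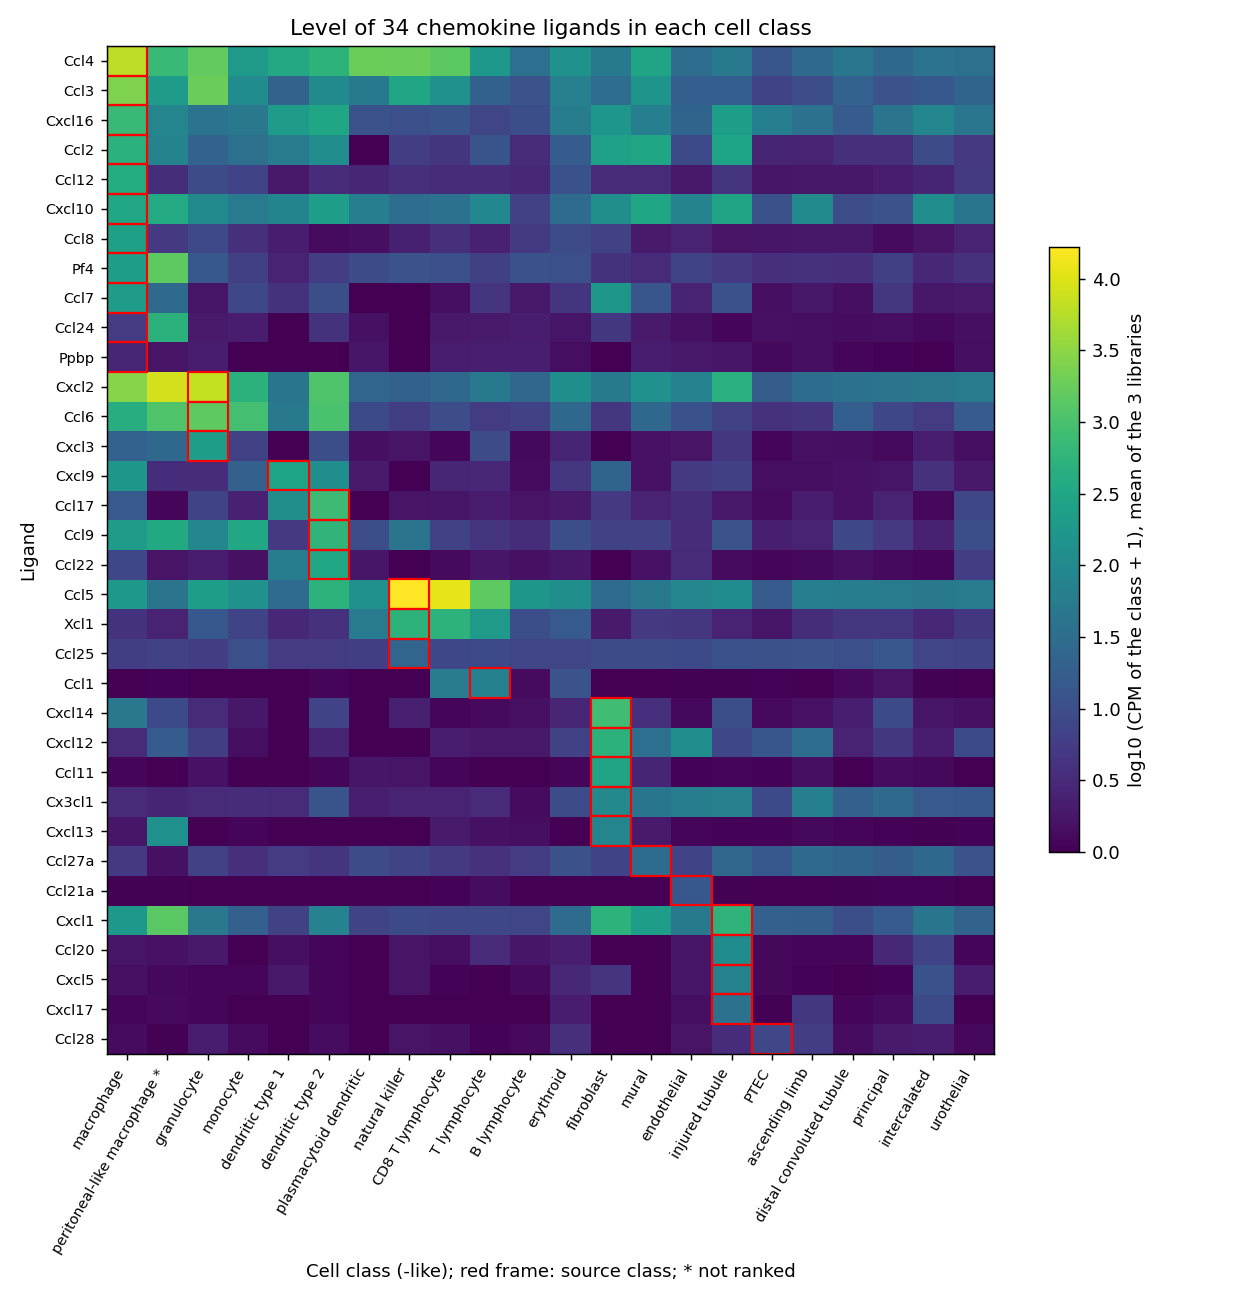
Level of each of the 34 ligands (rows) in each cell class (columns), as log10 of the mean CPM over the 3 libraries with 1 added. Red frames mark the source class and asterisks the classes that were not ranked. Macrophage-like cells carry 11 of the frames, and most ligands are low outside 1 to 3 classes.

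For each ligand with at least 50 UMIs in its source class, a difference was counted as higher or lower if both Aoah-/- libraries were at least 1.5-fold above or below the WT library, with 1 CPM added. Of the 31 ligands tested in this way, 9 were higher, 6 were lower and 16 were neither. The higher ones were Cxcl3, Cxcl5, Ccl17, Ccl28, Ccl1, Ccl21a, Cxcl12, Cx3cl1 and Cxcl14, and the lower ones were Ccl3, Ccl4, Ccl8, Xcl1, Ccl11 and Cxcl13. Over all genes, the share that met the same rule depended on the class and is given beside each ligand group. The differences below are log2 ratios of the mean of the Aoah-/- libraries to the WT library, with the SD between these 2 libraries.

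**Figure D2:**
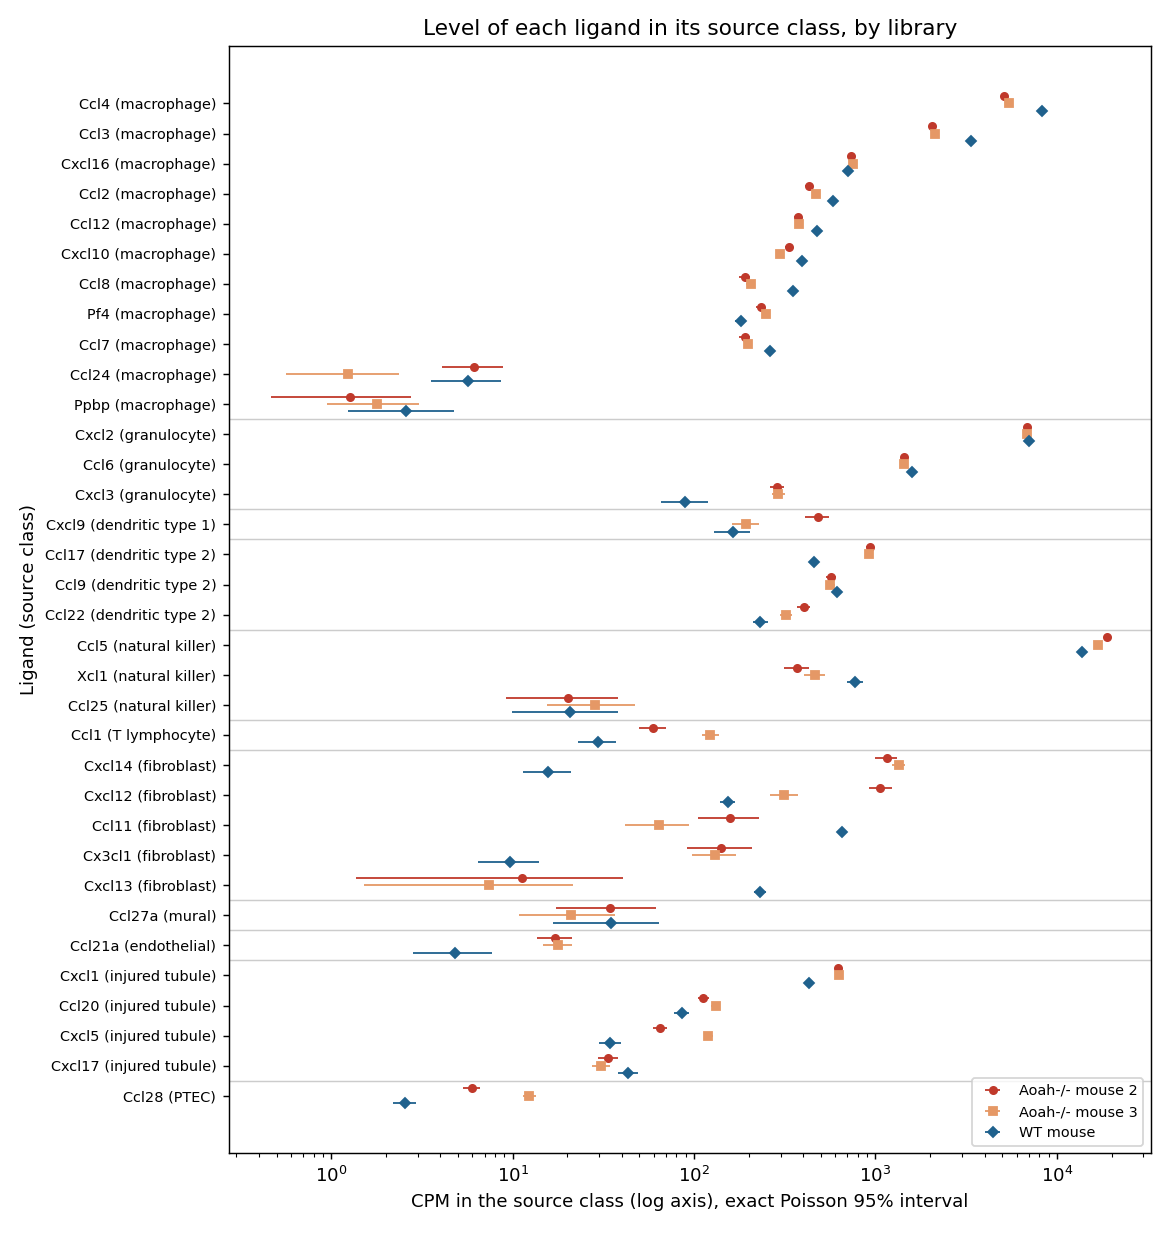
CPM of each ligand in its source class (log axis), with 1 point per library and exact Poisson 95% intervals, which cover counting error only. The points of the 3 libraries lie close together for Cxcl2, Ccl6 and Cxcl16, while for Cxcl3, Cxcl14 and Ccl11 the WT mouse lies apart from both Aoah-/- mice.

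Among the ligands of neutrophils, Cxcl2 was carried by granulocyte-like cells at 6820, 6882 and 6998 CPM. The 3 libraries were nearly equal, with a log2 ratio of -0.03 ± 0.01 (SD, n = 2). Macrophage-like cells were the second of the ranked classes, at 3014, 2681 and 2736 CPM. Peritoneal-like macrophages, which were too few in Aoah-/- mouse 3 (13 cells) to be ranked, were at 6717, 10151 and 8198 CPM. The UMIs themselves lay elsewhere, since granulocyte-like cells held only 12.1%, 27.8% and 14.0% of all Cxcl2 UMIs. Peritoneal-like macrophages held 58.3% of them in Aoah-/- mouse 2, and macrophage-like cells held 39.7% and 39.6% in the other libraries.

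Cxcl3, a second ligand of CXCR2, was at 286, 292 and 89.7 CPM in granulocyte-like cells. The Aoah-/- libraries agreed closely and the WT library was below both, with a log2 ratio of 1.67 ± 0.02 (SD, n = 2). The WT value rested on 48 UMIs in 18 cells (95% interval 66.1 to 119 CPM), against 488 UMIs in 100 cells and 578 UMIs in 74 cells. The share of granulocyte-like cells with a Cxcl3 UMI, after thinning each cell to 1000 UMIs, was 9.87%, 7.95% and 6.31%, with overlapping intervals (lowest bound 3.40%, highest 12.2%). Without thinning it was 12%, 10.7% and 8.22%, and in tubular classes that should lack the ligand it was at most 0.122% after thinning. The median UMI counts of the cells kept for thinning, before it, were 1696, 2219 and 2000 in granulocyte-like cells and 9687, 7881 and 8311 in these tubular classes. Within the largest granulocyte-like cluster (471, 377 and 107 cells) Cxcl3 was at 416, 466 and 84.2 CPM, whereas in the next one (321, 211 and 100 cells) it was at 196, 99.0 and 143 CPM without a common direction. Summed macrophage markers in the granulocyte-like class were 647, 772 and 297 CPM, and their part in this difference was not tested. Over all 6650 genes tested in this class, 12.4% were higher and 2.69% lower, against 4 and 3 of 13 ligands. The 4 were Pf4, Cxcl3, Cxcl16 and Ccl5, and the 3 were Cxcl10, Ccl9 and Ccl4.

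**Figure D3:**
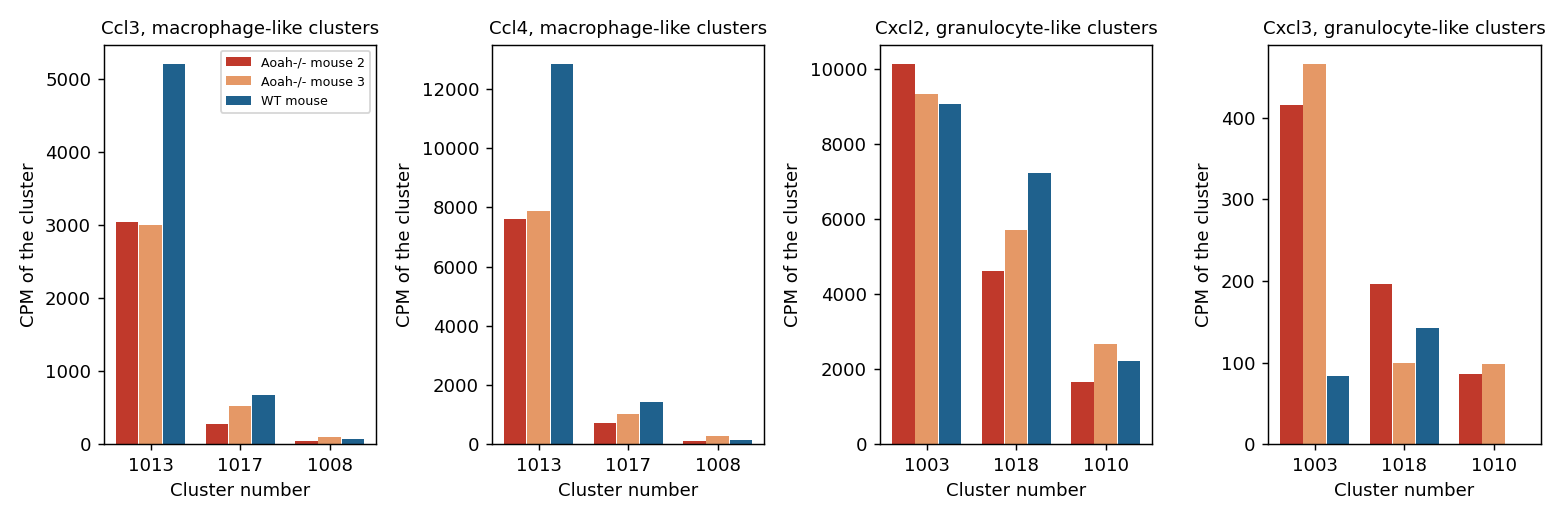
CPM of Ccl3 and Ccl4 in the 3 macrophage-like clusters and of Cxcl2 and Cxcl3 in the 3 granulocyte-like clusters, with 1 bar per library. Ccl3 and Ccl4 are concentrated in a single macrophage-like cluster, where both Aoah-/- mice lie below the WT mouse.

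Cxcl1, Cxcl5 and Ccl20 came from the injured tubule-like class (725, 932 and 460 cells), which was named from Havcr1, Lcn2, Clu and related injury markers. Cxcl1, the main neutrophil ligand of stressed epithelium, was at 621, 630 and 429 CPM there, a log2 ratio of 0.54 ± 0.01 (SD, n = 2), which is under the 1.5-fold rule. It was not confined to tubules. Fibroblast-like cells of the WT mouse had 1102 CPM against 379 and 106 CPM in the Aoah-/- mice, and peritoneal-like macrophages had 1658, 1453 and 1038 CPM.

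Cxcl5, which also binds CXCR2, was narrower. Injured tubule-like cells held 68.9%, 82.9% and 92.6% of its UMIs, at 64.9, 120 and 34.6 CPM. Both Aoah-/- libraries were above the WT library but differed by nearly as much from each other, and the log2 ratio was 1.39 ± 0.62 (SD, n = 2). Only a few cells carried it, 63, 91 and 39 in number, or 2.89%, 3.86% and 2.94% of the class after thinning and 8.69%, 9.76% and 8.48% before. Its share among B lymphocyte-like cells, taken as background, was 0 in all 3 libraries after thinning. The median UMI counts of the cells kept for it, before thinning, were 9622, 7764 and 11410 in the injured tubule-like class and 2755, 2430 and 2251 in B lymphocyte-like cells.

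Ccl20, the ligand of CCR6 on lymphocytes and dendritic cells, had 86.5%, 89.2% and 96.3% of its UMIs in the injured tubule-like class. It was at 112, 132 and 85.4 CPM in 33, 53 and 26 cells, with a log2 ratio of 0.51 ± 0.16 (SD, n = 2), and was counted as neither. Cxcl17, a mucosal chemokine, was at 33.6, 30.8 and 43.3 CPM in the same class, with a log2 ratio of -0.42 ± 0.08 (SD, n = 2). Cells with a Cxcl5 UMI more often had a Ccl20 UMI than cells without. In a separate random thinning to 1000 UMIs, used for pairs of ligands and giving other cell numbers than the shares above, 20%, 23.7% and 25% of the Cxcl5-positive cells (20, 38 and 8 cells) had a Ccl20 UMI, against 1.49%, 1.79% and 2.77% of the negative cells. Likewise, 50%, 64.0% and 50% of the Ccl20-positive cells had a Cxcl1 UMI, against 24.2%, 23.7% and 16.4% of the negative cells. In the injured tubule-like class, 5 of 24 ligands tested were higher and 2 lower, against 3.6% and 1.37% of all genes there. The 5 were Cxcl5, Cxcl12, Ccl9, Ccl6 and Ccl28, and the 2 were Ccl12 and Ccl5.

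Pf4 and Ppbp are stored in platelets, and Pf4 is also a marker of some tissue macrophages. Pf4 was at 232, 248 and 181 CPM in macrophage-like cells, a log2 ratio of 0.41 ± 0.07 (SD, n = 2), but at 939, 816 and 2734 CPM in peritoneal-like macrophages, which held 80.1% of its UMIs in Aoah-/- mouse 2 and 53.0% in the WT library. Ppbp was near the limit of detection, with 6, 13 and 10 UMIs in its nominal source class, and a different class was highest in each library. It was found in 33, 39 and 60 cells, in which 14 platelet genes summed to 167, 102 and 686 CPM, against 57.3, 72.8 and 47.1 CPM in the other cells. The part of attached platelets in the values of Ppbp was not tested.

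Ccl3 and Ccl4, inflammatory ligands also known as MIP-1 alpha and MIP-1 beta, were macrophage-like genes in every library. Ccl4 was at 5128, 5475 and 8242 CPM, and the WT library lay above both Aoah-/- libraries by more than these differed. The log2 ratio of Ccl4 was -0.64 ± 0.07 (SD, n = 2). Ccl3 was at 2054, 2135 and 3366 CPM, a log2 ratio of -0.68 ± 0.04 (SD, n = 2). In granulocyte-like cells, the second class of Ccl3, the libraries were nearly equal at 1765, 1799 and 1785 CPM.

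Both genes were concentrated in the largest cluster of the macrophage-like class (662, 871 and 524 cells), in which Ccl4 was at 7594, 7872 and 12856 CPM and Ccl3 at 3045, 3006 and 5216 CPM. In the second cluster (646, 43 and 847 cells, of low UMI counts) Ccl4 was at 113, 267 and 151 CPM, and in the third, led by Gpnmb and Trem2 (82, 186 and 48 cells), at 710, 1013 and 1429 CPM. The clusters were not equally filled. This bears on the averages, because sums weight cells by their UMIs. As the mean of the CPM of single cells, the log2 ratio over the class was -0.04 for Ccl3 and 0.04 for Ccl4, and no difference was seen. Within the largest cluster, however, the mean over cells gave -0.82 for Ccl3 and -0.74 for Ccl4, and the sums gave -0.79 and -0.73. The summed macrophage markers of the class were 14021, 15865 and 14516 CPM.

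The share of macrophage-like cells with a Ccl4 UMI after thinning was 63.2%, 70.0% and 69.6%, and that with a Ccl3 UMI 51.4%, 59.1% and 61.2%, so the Aoah-/- libraries were not both below the WT library by share in the case of Ccl4. Thinning left out 542, 0 and 721 of these cells, and the unthinned shares of Ccl4 were 46.7%, 82.6% and 40.8%. Background shares in 3 tubular classes (intercalated-like, ascending limb-like and distal convoluted tubule-like) were 2.13%, 4.43% and 1.46% for Ccl4. Before thinning, the median UMI counts of the cells kept for it were 4214, 5036 and 3806 in macrophage-like cells and 9687, 7881 and 8311 in the tubular classes. Of Ccl3-positive cells 88.6%, 88.8% and 94.9% had a Ccl4 UMI, against 34.5%, 43.2% and 30.2% of Ccl3-negative cells.

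The monocyte ligands of CCR2 shared the macrophage-like class. Ccl2 was at 427, 472 and 583 CPM there, Ccl7 at 190, 198 and 261 CPM and Ccl12 at 373, 379 and 474 CPM. Both Aoah-/- libraries were below the WT library for each of these, with log2 ratios of -0.38 ± 0.10, -0.43 ± 0.04 and -0.33 ± 0.02 (SD, n = 2), all under the 1.5-fold rule. The sign depended on the averaging, since as the mean over single cells the log2 ratios were 0.29, 0.36 and 0.03. They differed in breadth. Macrophage-like cells held 84.4%, 81.6% and 89.1% of the Ccl12 UMIs but 36.9%, 45.5% and 32.4% of the Ccl2 UMIs. Injured tubule-like cells held another 31.7%, 33.6% and 26.7% of the Ccl2 UMIs, at 234, 273 and 323 CPM. Ccl2 and Ccl7 were also high in fibroblast-like cells of the WT mouse, at 542 and 444 CPM, against 203 and 22.6 CPM in Aoah-/- mouse 2 and 24.6 and 46.8 CPM in Aoah-/- mouse 3. Of Ccl2-positive macrophage-like cells 29.7%, 26.8% and 28.5% had a Ccl7 UMI, against 4.39%, 4.43% and 4.02% of the negative cells.

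Ccl8, a monocyte ligand with wide receptor use, was at 190, 205 and 350 CPM in macrophage-like cells, a log2 ratio of -0.82 ± 0.08 (SD, n = 2). Its distribution was opposite to that of Ccl3 and Ccl4, since the cluster of low UMI counts carried most per UMI. There it was nearly equal at 460, 432 and 473 CPM, while it was at 169, 252 and 332 CPM in the largest cluster and at 116, 102 and 297 CPM in the third. The difference over the class thus had no counterpart in the cluster with the highest level. In macrophage-like cells, 3 of 23 ligands tested were higher (Xcl1, Cxcl1 and Ccl22) and 5 were lower (Cxcl9, Ccl17, Ccl8, Ccl3 and Ccl4), against 5.83% and 0.661% of 9978 genes. The median log2 ratio was -0.26 over these ligands and 0.18 over all genes of the class.

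Cxcl16, which is made as a membrane protein and binds CXCR6 on T lymphocytes, did not differ by the rule in macrophage-like cells, at 733, 750 and 704 CPM (log2 ratio 0.08 ± 0.02, SD, n = 2). Its share of cells there was 50.7%, 48.7% and 44.3% after thinning and 60.9%, 90.7% and 48.8% before, against 3.23%, 3.36% and 4.18% of the tubular background cells after thinning. PTEC-like cells carried it at a lower level of 80.0, 76.2 and 37.6 CPM, the Aoah-/- libraries being above the WT library. They held 34.7% of its UMIs in Aoah-/- mouse 2 and 30.9% in the WT library, more than macrophage-like cells there.

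Cxcl9 and Cxcl10 are induced by interferons and bind CXCR3 on activated T and NK cells. Cxcl10 was spread over several classes, at 334, 297 and 393 CPM in macrophage-like cells and 231, 300 and 343 CPM in injured tubule-like cells, and a different class was highest in each library. Cxcl9 was highest in dendritic type 1-like cells at 479, 193 and 163 CPM, which rested on 10, 15 and 8 cells. Macrophage-like cells held 50.4%, 45.6% and 59.4% of its UMIs, at 136, 135 and 232 CPM. In the dendritic type 1-like class 1 of 10 ligands tested was higher (Ccl5) and 1 lower (Cxcl2), against 7.03% and 1.76% of all genes.

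Ccl17 and Ccl22, both ligands of CCR4 on regulatory and helper T lymphocytes, came from dendritic type 2-like cells (209, 235 and 220 cells). Summed markers of mature dendritic cells were higher in this class than in any other, at 1229, 931 and 1037 CPM. No separate mature dendritic class was named, and the part of such cells in these values was not tested. Ccl17 was at 932, 915 and 459 CPM, with both Aoah-/- libraries at about the same height and a log2 ratio of 1.01 ± 0.02 (SD, n = 2). It was carried by 67, 79 and 64 cells, or 21.1%, 18.3% and 14.1% of cells after thinning and 32.1%, 33.6% and 29.1% before, with tubular background shares of at most 0.168% after thinning. The median UMI counts of the dendritic type 2-like cells kept, before thinning, were 7221, 8251 and 8018. Ccl22 was at 402, 323 and 232 CPM, a log2 ratio of 0.64 ± 0.22 (SD, n = 2), and only Aoah-/- mouse 2 passed 1.5-fold. Of Ccl17-positive cells 38.1%, 36.4% and 38.7% had a Ccl22 UMI, against 5.99%, 8.38% and 9.52% of the negative cells. In dendritic type 2-like cells 2 of 16 ligands tested were higher (Cxcl3 and Ccl17) and 1 was lower (Ccl2), against 4.1% and 0.855% of all genes.

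Ccl6 and Ccl9 are CCR1 ligands of rodents without a direct human counterpart. Ccl6 was highest in granulocyte-like cells at 1436, 1434 and 1591 CPM, and Ccl9 in dendritic type 2-like cells at 567, 563 and 614 CPM. Both were counted as neither. Ccl24, an eosinophil ligand of CCR3, belonged to the peritoneal-like macrophages, where it was at 431, 760 and 362 CPM. In its nominal source among ranked classes, the macrophage-like cells, it was at 6.13, 1.24 and 5.69 CPM.

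Ccl5 (RANTES), a ligand of T lymphocytes and monocytes, was an NK-like and CD8 T lymphocyte-like gene. It was at 18865, 16815 and 13802 CPM in NK-like cells and 13702, 10759 and 9468 CPM in CD8 T lymphocyte-like cells, with a log2 ratio of 0.37 ± 0.12 (SD, n = 2) in the former. Nearly every NK-like cell had a UMI, 98.0%, 97.0% and 96.0% after thinning, against 2.86%, 8.30% and 1.17% of the tubular background cells. The median UMI counts of NK-like cells were 2590, 2964 and 2657 among those kept for thinning, and the tubular medians were those given for Ccl4. By number, CD8 T lymphocyte-like cells (1229, 1178 and 520) held 65.6%, 58.9% and 51.1% of its UMIs. Xcl1, which draws the XCR1-bearing dendritic cells, went the other way in NK-like cells, at 367, 463 and 775 CPM (log2 ratio -0.90 ± 0.24, SD, n = 2), and its share of cells after thinning was 16.7%, 24.1% and 34.4%, against at most 1.18% of the background cells, and 31.4%, 40.6% and 49.0% before thinning. In CD8 T lymphocyte-like cells it was at 318, 605 and 648 CPM, where Aoah-/- mouse 3 and the WT mouse were close. In NK-like cells 1 of 5 ligands tested was higher (Ccl9) and 1 lower (Xcl1), against 3.44% and 1.88% of all genes.

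Ccl1, a ligand of CCR8 made by activated T lymphocytes, was at 59.0, 123 and 29.4 CPM in T lymphocyte-like cells, and rested on 14, 24 and 13 cells. A single cell gave 97, 127 and 25 of its UMIs in the 3 libraries. In CD8 T lymphocyte-like cells it was at 127, 39.2 and 3.45 CPM. T lymphocyte-like cells held 24.3%, 53.7% and 24.5% of the Ccl1 UMIs. CD8 T lymphocyte-like cells held 70.6% of them in Aoah-/- mouse 2, and unnamed cells held 69.8% in the WT mouse. In T lymphocyte-like cells 5 of 12 ligands tested were higher (Cxcl3, Cxcl1, Cxcl2, Cxcl16 and Ccl1) and 2 were lower (Xcl1 and Ccl2), against 2.81% and 1.4% of all genes.

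The fibroblast-like ligands differed most between the libraries, but this class was not made of the same cells. It had 25, 56 and 395 cells. In the Aoah-/- mice 17 and 50 of them belonged to a cluster led by Mgp, Bgn and Timp1. In the WT mouse 319 belonged to a cluster led by Dcn and Pi16 and 71 to a cluster that the other libraries lacked. The leading genes of the latter included Dcn, Igfbp6 and the mesothelial marker Upk3b. Mesothelial markers summed to 5.65, 4.93 and 937 CPM in the fibroblast-like class, and a separate mesothelial-like class held 1, 0 and 74 cells. The part of mesothelial cells in the values of this class was not tested. Over all 7277 genes of the class 9.98% were higher and 15.6% lower, more than in any other source class when both are added, against 4 and 5 of 13 ligands. The 4 were Cxcl12, Cx3cl1, Cxcl16 and Cxcl14, and the 5 were Cxcl1, Cxcl13, Ccl2, Ccl7 and Ccl11. The effect of genotype and the different clusters cannot be told apart.

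Cxcl14, an epithelial and stromal chemokine whose receptor is debated, was at 1153, 1340 and 15.6 CPM in fibroblast-like cells (log2 ratio 6.23 ± 0.15, SD, n = 2). Within the cluster led by Mgp it was at 1435, 1459 and 887 CPM, the last from 5 WT cells, and in that led by Dcn and Pi16 at 0, 0 and 0.901 CPM, the last from 2 UMIs. Ccl11 (eotaxin), an eosinophil ligand, was at 158, 64.0 and 653 CPM in the class (log2 ratio -2.54 ± 0.91, SD, n = 2), and at 690, 485 and 844 CPM within the cluster led by Dcn and Pi16, the first values from 8 and 6 cells. For both genes the 3 libraries were thus much closer within a cluster than over the class. Cxcl13, the B lymphocyte ligand of CXCR5, was at 11.3, 7.39 and 230 CPM, on 2, 3 and 664 UMIs, and was also present in peritoneal-like macrophages at 138, 55.9 and 196 CPM.

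Cxcl12, the ligand of CXCR4 that holds stem cells and lymphocytes in their niche, was at 1062, 313 and 154 CPM in fibroblast-like cells on 7, 18 and 143 cells (log2 ratio 2.16 ± 1.24, SD, n = 2). Endothelial-like cells, which were numerous (1071, 1265 and 755), carried it at 109, 79.3 and 156 CPM, and PTEC-like cells held the most of its UMIs, 35.6%, 35.8% and 37.4%. The PTEC-like level of Cxcl12 was 12.8, 14.8 and 9.97 CPM, near the 14.7, 12.1 and 8.69 CPM of the tubular background classes. Cx3cl1 (fractalkine), a membrane-bound ligand of monocytes, was at 141, 131 and 9.70 CPM in fibroblast-like cells (log2 ratio 3.68 ± 0.08, SD, n = 2), on 25, 53 and 28 UMIs. In the cluster led by Mgp it was at 176, 142 and 591 CPM, the last from 5 WT cells. The opposite direction there rests on these few WT cells. It was even in injured tubule-like cells (74.3, 62.0 and 68.9 CPM) and was highest in the WT mouse in ascending limb-like cells (59.3, 57.5 and 78.3 CPM). An endothelial-like cluster led by Emcn, Plat and Ehd3 (96, 80 and 24 cells) had 243, 265 and 250 CPM of Cx3cl1, above the fibroblast-like level in each library, but the ranking of sources was by class and the endothelial-like class as a whole was at 66.1, 65.8 and 44.8 CPM.

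Ccl21a, the CCR7 ligand of lymphatic endothelium, was at 17.0, 17.8 and 4.82 CPM in endothelial-like cells, but was found in 4, 3 and 1 cells, of which 1 gave 61 of 82, 115 of 119 and 17 of 17 UMIs. Its apparent difference is therefore one between single cells. In endothelial-like cells 10 of 17 ligands tested were higher and 1 (Cxcl9) was lower, against 3.56% and 1.04% of all genes. The 10 included Ccl3, Ccl4, Ccl5, Cxcl1 and Cxcl2, none of which had this class as its source.

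Ccl28, a mucosal ligand of CCR10, was the ligand of PTEC-like cells, at 5.97, 12.4 and 2.55 CPM. Both Aoah-/- libraries were above the WT library, with a log2 ratio of 1.52 ± 0.66 (SD, n = 2), on 334, 602 and 190 UMIs in 167, 237 and 101 cells, or 2.03%, 5.04% and 1.07% of cells. After thinning these shares were 0.368%, 0.851% and 0.157%, and the background shares in B lymphocyte-like cells were 0, at median UMI counts before thinning of 5382, 6630 and 6947 in the PTEC-like cells kept and 2755, 2430 and 2251 in B lymphocyte-like cells. The ascending limb-like level was 5.58, 4.82 and 3.81 CPM, and exceeded the PTEC-like level in the WT mouse. PTEC-like cells had 7 of 23 ligands higher (Cxcl1, Cxcl2, Cxcl16, Ccl5, Ccl3, Ccl4 and Ccl28) and 0 lower, against 2.87% and 0.9% of all genes.

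Several of these differences in classes that were not sources went along with differences in the same direction in the tubular background cells. Cxcl2 was at 32.8, 12.3 and 4.2 CPM in PTEC-like cells and at 53.7, 49.1 and 10.8 CPM in the 3 tubular background classes together. Ccl5 was at 18.1, 18.3 and 7.46 CPM in PTEC-like cells and at 57.4, 94.0 and 16.7 CPM in the background classes. Ccl4 was at 12.9, 17.5 and 7.49 CPM and at 36.0, 48.8 and 24.9 CPM. For these genes the level in PTEC-like cells was below that of the background classes in every library. Single background cells held up to 56, 100 and 15 Cxcl2 UMIs and 179, 126 and 73 Ccl5 UMIs, so these classes are not a clean floor. Whether the PTEC-like level is expression was not tested. Cxcl1 was at 25.5, 21.3 and 10.1 CPM in PTEC-like cells, against 40.7, 23.0 and 9.77 CPM in the background classes. Cxcl16, in contrast, was above the background level in PTEC-like cells of both Aoah-/- mice and below it in the WT mouse, the background being 49.8, 44.4 and 50.5 CPM. Ccl28 was above the background of 2.47, 2.25 and 1.88 CPM in every library. For Ccl28 these background classes included its second class, the ascending limb-like cells.

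Ccl27a and Ccl25 had no clear source. Ccl27a, a skin chemokine, was at 34.6, 21.0 and 34.9 CPM in mural-like cells on 11, 12 and 10 UMIs, and at 23.1, 25.1 and 26.5 CPM in the tubular background classes. Ccl25, a ligand of CCR9, was at 20.2, 28.3 and 20.7 CPM in NK-like cells, and PTEC-like cells held 44.2%, 42.5% and 68.2% of its UMIs. By share of cells after thinning, 25 of the 34 ligands were above background in all 3 libraries, with intervals that did not overlap. The other 9 were Ccl27a, Ccl25, Ccl21a, Ppbp, Cxcl13, Ccl24, Cx3cl1, Cxcl14 and Ccl28. The source class was chosen as the highest from the same UMIs, so the count of 25 is no independent support for it. The tubular background held the ascending limb-like cells, the second class of Ccl27a and the highest of Cx3cl1 in the WT mouse. An overlap with background thus does not show that a ligand was absent. In mural-like cells 1 of 8 ligands tested was higher (Cxcl1) and 5 were lower (Cxcl10, Cxcl16, Ccl2, Ccl3 and Ccl4), against 4.41% and 3.1% of all genes, in a class of 64, 83 and 42 cells.

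**Figure D4:**
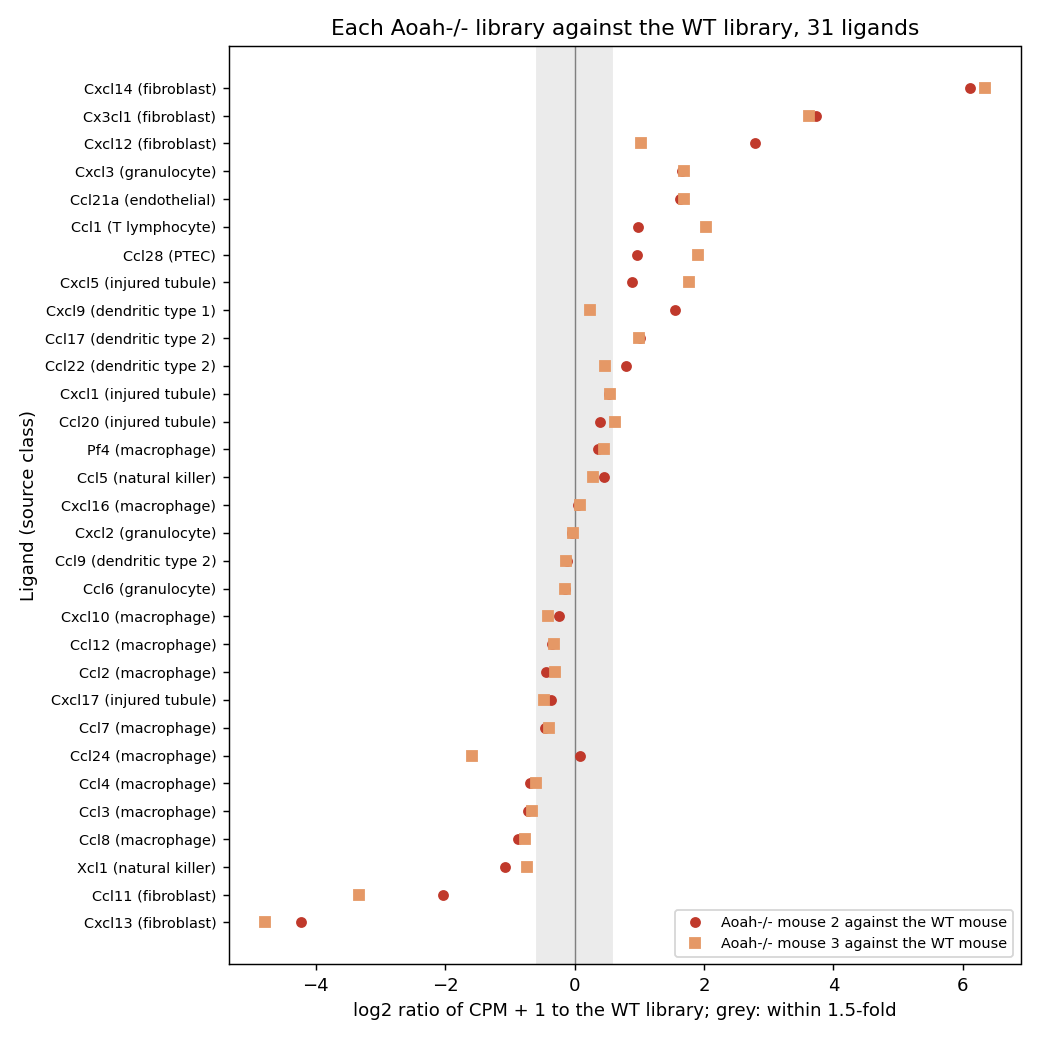
Log2 ratio of each Aoah-/- library to the WT library for the 31 ligands tested in their source class, with 1 CPM added; the grey band marks less than 1.5-fold. Both libraries lie above the band for 9 ligands and below it for 6, and the fibroblast-like ligands lie farthest out.

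Over all kept cells together, 8 of 34 ligands were higher (Ccl20, Ccl21a, Cxcl5, Cxcl3, Cxcl2, Ccl1, Ccl5 and Cxcl14) and 1 was lower (Ccl11), against 3.75% and 2.74% of 16228 genes. The median log2 ratio was 0.47 over the ligands and 0.06 over all genes. Cxcl2 was at 730, 377 and 214 CPM and Ccl5 at 510, 555 and 258 CPM, so both were higher over all cells while they did not meet the rule in their source class. The number of granulocyte-like cells was 834, 692 and 219, that of NK-like cells 153, 133 and 151, and that of CD8 T lymphocyte-like cells 1229, 1178 and 520. Ccl3 and Ccl4, which were lower in macrophage-like cells, were at 128, 188 and 130 CPM and at 329, 491 and 335 CPM over all cells, without a common direction.

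The peritoneal-like macrophages weighed on several sums of Aoah-/- mouse 2. Without them Cxcl1 went from 180, 80.7 and 66.3 CPM to 79.5, 79.8 and 61.7 CPM, and Pf4 from 74.3, 19.5 and 24.3 CPM to 15.8, 19.0 and 11.5 CPM. Ccl24 went from 29.6, 0.721 and 3.04 CPM to 2.45, 0.200 and 1.34 CPM. Cxcl2 was then at 325, 370 and 177 CPM and remained higher in both Aoah-/- libraries. In that sum 10 ligands were higher, Ccl17 and Ccl28 being added, and 2 were lower, Ccl11 and Cxcl13. The share over all genes was not computed for this sum, so these counts are not read as particular to ligands.

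**Figure D5:**
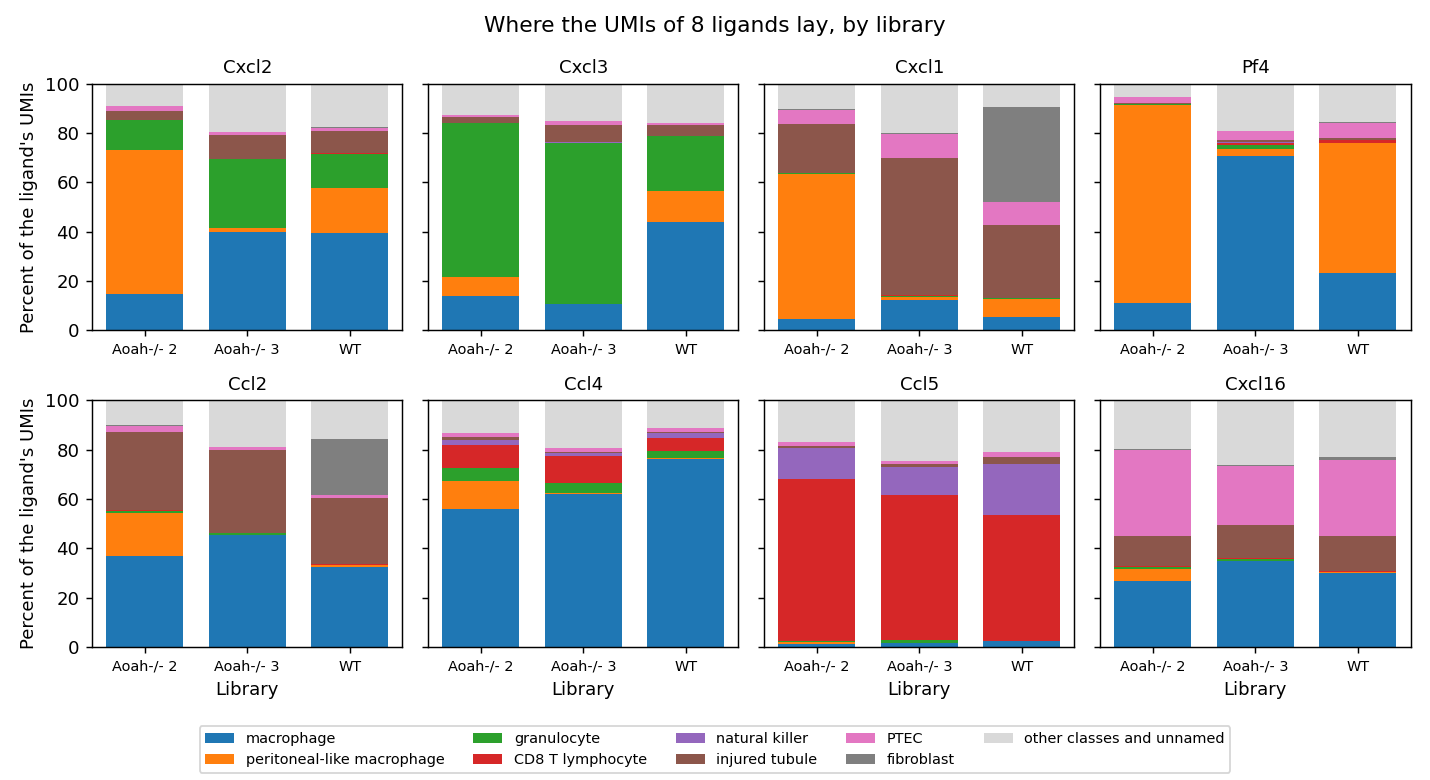
Percent of the UMIs of 8 ligands by cell class in each library (stacked bars). Peritoneal-like macrophages hold most Cxcl2, Cxcl1 and Pf4 UMIs in Aoah-/- mouse 2 and few in Aoah-/- mouse 3. CD8 T lymphocyte-like cells hold the most Ccl5 UMIs in every library, and NK-like cells hold a larger part of them in the WT mouse.

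The receptors were measured in the same libraries. Of 24 receptors and decoy receptors listed, 22 had enough UMIs, of which 5 were higher, 1 was lower and 16 were neither over all kept cells, with a median log2 ratio of 0.38, beside 3.75% higher, 2.74% lower and a median of 0.06 among all genes. Cxcr2, the receptor of Cxcl1, Cxcl2, Cxcl3 and Cxcl5, was at 10.5, 10.9 and 3.11 CPM over all cells, but at 729, 576 and 617 CPM in granulocyte-like cells. Ccr1 was at 23.2, 16.2 and 7.0 CPM, Cxcr4 at 47.1, 62.4 and 28.4 CPM, and Ccrl2, which presents chemerin and does not signal, at 129, 87.0 and 41.9 CPM. In granulocyte-like cells, the highest class of each, Ccr1 was at 688, 593 and 664 CPM and Cxcr4 at 653, 497 and 619 CPM. Ccrl2 was at 1304, 1429 and 1579 CPM there. Ackr3, a scavenger of Cxcl12, was lower at 25.7, 20.5 and 52.4 CPM. Its highest class was the unevenly filled fibroblast-like class (25, 56 and 395 cells), at 62.2, 4.93 and 625 CPM. Xcr1 was highest in dendritic type 1-like cells at 438, 412 and 226 CPM, Cx3cr1 in macrophage-like cells at 477, 520 and 375 CPM and Ccr2 in monocyte-like cells at 655, 612 and 383 CPM.

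Tissue digestion for 40 min at 37 °C is known to induce immediate early and stress genes, and several chemokines respond to the same handling. A list of 15 such genes summed to 8843, 8871 and 7366 CPM over all kept cells, and 12 of the 15 were above the WT library in each Aoah-/- library. In macrophage-like cells the sum was 18236, 21706 and 19390 CPM, in granulocyte-like cells 16705, 16588 and 16874 CPM, and in injured tubule-like cells 20511, 19858 and 20916 CPM. It was 13525, 14514 and 11526 CPM in dendritic type 2-like cells and 16252, 18268 and 20358 CPM in fibroblast-like cells. The part of digestion in the levels of the ligands was not tested.

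The other features were not described. Of these, 9 had no UMI in any library, namely Ccl26, all features named Ccl21b or Ccl21c and further copies of Ccl27a, Ccl19 and Ccl21a, and 3 had fewer than 50 (Ccl27b with 1, a feature named Ccl19 with 23 and Cxcl15 with 28 UMIs). Of the symbols, 5 were carried by more than 1 feature. Reads of such near-identical copies can be split or lost, so that the values of Ccl21a, Ccl27a and Ccl19 are uncertain.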

How the data were processed

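Single-cell libraries (3′ chemistry, 1 per mouse) were made from perfused kidneys digested with collagenase and DNase. The authors deposited raw UMI counts per gene and called cell, not normalised, for each library. The submitters' processing notes name Cell Ranger 3.1.0, STAR and Seurat 4.2.0 and the build mm10, and the file headers name another Cell Ranger release. Barcodes began at 500 UMIs in Aoah-/- mouse 2 and the WT mouse and at 1672 UMIs in Aoah-/- mouse 3, so cell calling was not alike.

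Barcodes with 200 or more genes and no more than 50% mitochondrial UMIs were kept and clustered together in scanpy 1.11.5 (2000 variable genes, 50 principal components, 15 neighbours, Leiden resolution 1). The 46 ligand features and 12 genes (Aoah, Cd74 and MHC class II) were left out of the variable genes. Immune and endothelial/stromal cells were clustered again with 30 components. A cluster of at least 50 cells was named if the mean log2 level of its best 5 markers was at least 2 above the cluster median and at least 3 of them were 2-fold higher. Doublets were kept, since Scrublet called 516, 0 and 246 cells and so did not work for Aoah-/- mouse 3.

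UMIs were summed per library and class. All described ligands were named in the text. Intervals are exact Poisson or Clopper-Pearson 95% intervals (scipy 1.17.1) and cover counting error only, and UMIs of a cell are not independent. For shares, cells were thinned to 1000 UMIs and shallower cells were left out. The rule for differences (1.5-fold, at least 50 UMIs, 1 CPM added) was tested on simulated data. Members, marker lists and rules were chosen with earlier results of these data known. Gene positions are from GENCODE M21, and promoters from RefSeq. The values of a single receptor of the list are not reported here.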

Additional observations from a re-analysis of the deposited data

Results flagged for a closer look

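For 14 ligands, a class in which both Aoah-/- libraries were at least 1.5-fold above the WT library stood beside one in which both were at least 1.5-fold below it. The differences between classes were not tested. Up to 21 classes were searched for each ligand. The share of all genes called both ways was not computed, so the count of 14 is not read as particular to ligands. Each value that follows is the log2 ratio (mean of the Aoah-/- libraries to the WT library) in the first class less that in the second. On each side, the class with the highest mean CPM of the ligand was taken, so classes with a larger gap can exist.

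Some pairs of classes included the source class. For Ccl17 the gap was 2.32 (1.01 in dendritic type 2-like and -1.31 in macrophage-like cells). For Ccl3 it was 3.51 (2.82 in endothelial-like and -0.68 in macrophage-like cells), where the endothelial-like level was 17.2, 31.1 and 2.55 CPM. For Ccl4 it was 1.27 (0.64 in monocyte-like and -0.64 in macrophage-like cells). For Ccl8 it was 3.56 between erythroid-like and macrophage-like cells. For Xcl1 it was 1.98 between endothelial-like (3.12, 6.27 and 1.70 CPM) and NK-like cells. For Cx3cl1 it was 4.89 between fibroblast-like and urothelial-like cells. Erythroid-like cells of Aoah-/- mouse 3 also had the most macrophage markers, 895 CPM against 117 and 198 CPM in Aoah-/- mouse 2 and the WT mouse, and the part of this in the value of Ccl8 was not tested.

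In the other pairs neither class was the source. Ccl5 had a gap of 3.7 between granulocyte-like and injured tubule-like cells and Ccl9 one of 5.11 between NK-like and granulocyte-like cells. Cxcl1 had 4.1 (mural-like against fibroblast-like), Cxcl10 1.98 (ascending limb-like against mural-like) and Cxcl16 3.36 (fibroblast-like against mural-like). Cxcl2 had 2.89 (erythroid-like against dendritic type 1-like), Cxcl9 1.77 (monocyte-like against macrophage-like) and Pf4 2.63 (granulocyte-like against B lymphocyte-like). Some of these levels were low, as for Pf4 at 14.0, 19.2 and 5.61 CPM in granulocyte-like and 9.11, 4.70 and 17.4 CPM in B lymphocyte-like cells. The NK-like level of Ccl9 was 101, 14.2 and 6.20 CPM, so the Aoah-/- libraries lay far apart. The part of RNA from other cells in such values was not tested.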

How the results depend on the processing

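No paired analysis was possible because the groups share only the replicate number 3. Of 438 ratios of single ligands recomputed under an alternative, 303 stayed within the SD between the Aoah-/- libraries, 134 moved further and 1 ratio that had met the 1.5-fold rule turned its direction, that of Ccl4 in macrophage-like cells, which was 0.0405 as the mean of the CPM of single cells. Ratios counted as neither also changed sign under some alternative. As the mean over single cells they did so for Ccl2 (-0.38 to 0.29), Ccl7 (-0.43 to 0.36), Ccl12 (-0.33 to 0.03), Cxcl10 (-0.32 to 0.43) and Ccl9 (-0.12 to 0.13). With other settings they did so for Ccl24 (-0.51 to at most 0.09), Cxcl2 (-0.03 to at most 0.45), Ccl6 (-0.15 to at most 0.12) and Cxcl16 (0.08 to -0.03). Some ligands counted as neither met the rule under an alternative. Ccl20 and Cxcl1 stayed neither under 11 of 14 each and Pf4 under 14 of 16. Cxcl9 did so under 10 of 12, Ccl22 under 11 of 12 and Ccl24 under 12 of 13. Pf4 met the rule within the largest macrophage-like cluster alone, by sums and as the mean over single cells. The same class was highest in all 3 libraries for 18 to 24 ligands over the alternatives, against 21. Of the 34 ligands, 17 kept their source class in all 9 clusterings or averages and 17 had another in at least 1. With at most 20% mitochondrial UMIs, the ligands higher in their source class were 5 instead of 9, and receptors lower over all cells were 2 instead of 1, as they were without the 10% highest Scrublet scores. With a common floor of 1672 UMIs per cell, 3 ligands were lower in their source class instead of 6. At 2-fold, 5 ligands were higher and 2 lower in their source class, 3 were higher over all cells, and 3 receptors were higher and 0 lower. With 10 CPM added, 2 ligands and 3 receptors were higher over all cells. With the mean over cells, 3 ligands were lower over all cells. Without the peritoneal-like macrophages, an alternative chosen after seeing the data, 2 were lower. With either Aoah-/- library left out, ligands over all cells were 13 higher and 3 lower, those in the source class 10 to 11 higher and 6 to 7 lower, and receptors 6 to 10 higher and 1 to 2 lower. With only 1 Aoah-/- library to pass, the rule is easier to meet for every gene. The share over all genes was not recomputed under the alternatives, so these changes in counts are not read as particular to ligands or receptors. The log2 ratio of the summed stress genes, 0.27, was 0.31 with at most 20% mitochondrial UMIs, 0.25 with at least 500 genes, 0.30 for all barcodes, 0.24 with the UMI floor and 0.29 without high Scrublet scores. The cause was not tested. Calls of single ligands were taken in the main source class. Cxcl3, Cxcl12, Cx3cl1, Cxcl14 and Cxcl13 kept their call under all alternatives that gave a value for them. However, the highest ranked class changed with at most 20% mitochondrial UMIs and with the UMI floor. It was endothelial-like for Cxcl12, injured tubule-like for Cx3cl1 and Ccl11, and macrophage-like for Cxcl14. For Cxcl13 it was ascending limb-like and CD8 T lymphocyte-like, respectively. Ranking needed at least 20 cells in every library, and the fibroblast-like class had only 25 in Aoah-/- mouse 2 before these limits. A loss of its rank by cell number was not told apart from a lower level. Cxcl5 kept its call under 13 of 14 alternatives and Ccl17 under 11 of the 12 that gave a value for it. Each lost it at 2-fold. With all barcodes, the highest ranked class was injured tubule-like for Ccl17, urothelial-like for Ccl22 and macrophage-like for Ccl9 and Cxcl9. With ligands allowed among the variable genes, it was macrophage-like for Ccl17, Ccl9 and Cxcl9 and urothelial-like for Ccl22. Ccl1 kept its call under 7 of 14. Ccl8 kept its call under 10 of 16 alternatives, Ccl4 under 12 of 16 and Ccl3 under 14 of 16. Xcl1, Ccl28 and Ccl11 kept theirs under 12 of 14 and Ccl21a under 11 of 13, and the log2 ratio of Ccl11 was -0.09 with at most 20% mitochondrial UMIs. The share of cells was above background in 3 libraries for 23 ligands at 500 UMIs per cell and 26 without thinning. The WT group has a single library.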
